A study of Saccharomyces cerevisiae with 116 samples.

Results

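The genes described here encode the proteins of the mitochondrial ribosome of budding yeast, taken by name: nuclear open reading frames (ORFs) whose standard name begins with MRPL, or with MRPS or MRP followed by a number, together with IMG1 and IMG2. This rule gave 58 of the 6708 ORF rows counted in the libraries with added fission yeast cells. 40 of them encode proteins of the large subunit and 17 proteins of the small subunit, and the remaining gene, MRP8, fits the rule but is not known to be part of the ribosome. MRP8 is therefore described apart, and counts of members below are over the other 57. Of these, 38 encode proteins with a bacterial homologue and 19 encode proteins particular to mitochondrial ribosomes.

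The mitochondrial ribosome descends from a bacterial one and makes the few hydrophobic proteins that the mitochondrial genome still encodes, chiefly subunits of the respiratory chain and of ATP synthase. Nearly all of its proteins are encoded in the nucleus, made in the cytosol and imported, whereas its RNAs come from the mitochondrial genome. In budding yeast the nuclear genes are known as a co-regulated group, and many of their mRNAs are bound by the Pumilio protein Puf3 at the mitochondrial surface. They are also known to be expressed apart from the cytosolic ribosomal protein genes, which are among the most strongly repressed genes in many stresses.

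The study asked how far the response to salt and heat depends on whether cells are growing and dividing. All groups were the haploid strain BY4741 grown in rich glucose medium (YPD) for 7 to 10 generations, either growing asynchronously, or held for 2 h with alpha factor at 25 µM, the pheromone that arrests cells of the a mating type in G1, or with nocodazole at 10 µg/ml, which depolymerises microtubules and arrests cells in mitosis. Further groups had nocodazole for 3.5 h, or cycloheximide, an inhibitor of cytosolic translation, for 2 h. The cycloheximide labels were 0.1 or 0.2, in a unit not given in the sources used here. RNA was taken before stress (T0) and at T15 to T60 after NaCl or T10 to T40 after heat shock, read here as minutes. In the unspiked arrest groups, replicate 2 at T30 of salt consisted of 2 libraries, labelled 0.5 N and 0.7 N, and replicate 2 at T10 of heat of 2 libraries, labelled 33 and 37 degrees. These were pooled with replicate 1, which carries no dose. The tests and overlap counts treat such libraries as separate replicates, so replicate 2 enters with 2 libraries and doses are mixed. The comparisons use 3 libraries in each of 4 groups with added fission yeast (Schizosaccharomyces pombe) cells ("spiked": asynchronous and alpha factor, T0 and T30), and 1 to 4 libraries a group without them ("unspiked"). A further 50 libraries hold fractions and inputs of sucrose gradients, with 2 gradients of asynchronous cells at T0, 2 at T30 and 1 of alpha factor cells at T0. The labels call the replicates biological but do not say that cultures were separate. The p-values then measure the spread between these libraries, which may be technical.

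Total S. cerevisiae counts were 1555271 to 5469230 in spiked libraries, 1794997 to 7043273 in unspiked libraries and 365088 to 5081617 in gradient libraries. A member other than MRP8 had between 3 and 714 counts in a spiked library and between 12 and 1437 in an unspiked one, so single libraries resolve only large changes for the lowest members. The summed level of 5 pheromone genes was 2020 to 6690 CPM (counts scaled to the library total) in alpha factor libraries at T0 and later times and 23.7 to 135 CPM in the others outside the gradients, and 4880 to 7530 CPM in the alpha factor gradient and 38.3 to 206 CPM in the asynchronous ones. The 4 libraries with the time label t0' went against their arrest labels and enter no test here. The 2 labelled alpha factor had 46.9 and 49.8 CPM of pheromone genes and 775 CPM each of 5 mitosis genes. The 2 labelled nocodazole had 707 and 715 CPM of mitosis genes and 230 and 255 CPM of 4 G1/S genes, near the unspiked asynchronous T0 libraries (723 and 775, 265 and 314 CPM) and apart from nocodazole T0 (1080 to 1230, 50.5 to 74.2 CPM). The G1/S sum was 191 and 281 CPM in 3.5 h nocodazole at T0, where the mitosis sum was 1060 and 1180 CPM, and it was 562 CPM in the spiked alpha factor T30 replicate 2 against 36 and 92 CPM in the other two. The 4 genes of alpha-type cells summed to at most 4.96 CPM outside the gradients and 6.35 CPM in them. In bulk RNA a smaller number of cells and less RNA per cell cannot be told apart.

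Before stress the members were moderately expressed genes. In the 3 spiked asynchronous T0 libraries the median member stood at 63.6 CPM per kilobase of gene span, with a range of 22.6 to 342, against a median of 42.1 over all ORFs, 53.9 over 22 other genes of the mitochondrial ribosome (RSM and other names) and 881 over 138 cytosolic ribosomal protein genes. The median was 62 CPM per kilobase for the large subunit and 67.9 for the small subunit. The highest member was MRPL39, the smallest gene of the group at 213 bases and encoding the bL33 homologue, at 342 ± 24.3 CPM per kilobase (SD, n = 3). MRPS18, encoding the uS11 homologue, followed at 156 ± 46.8 and MRPS16, encoding the bS16 homologue, at 120 ± 44.2, which differ by less than their spread. At the low end, MRPL15 stood at 28.8 ± 1.35, MRPS5 at 27.3 ± 6.5 and MRP35, encoding the bL35 homologue, at 22.6 ± 2.88 CPM per kilobase, and MRPL15 and MRPS5 likewise lay within the spread. The top and the bottom of this order did not overlap in any library, whereas most neighbours in it did not differ beyond their spread.

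Nocodazole and alpha factor arrest differed most clearly before any stress. At T0 the 57 members together took 0.384 ± 0.0144% of counts in 4 unspiked nocodazole libraries (SD, n = 4) and 0.257 ± 0.0406% in 4 alpha factor libraries (SD, n = 4), and the lowest nocodazole share, 0.375%, lay above the highest alpha factor share, 0.308%. The 2 asynchronous libraries, at 0.296 and 0.309%, reached just above the top of the alpha factor range and stayed under all nocodazole libraries. Gene by gene, 37 members were higher in nocodazole and none lower (edgeR quasi-likelihood test, Benjamini-Hochberg adjusted over all ORFs tested, threshold 0.05), where 23% of all 5710 ORFs tested were called and 10.7% were called higher. All 57 fitted differences lay above 0, with a median log2 difference of 0.64 and a range of 0.0055 to 1.34, against a median of 0.017 over all ORFs.

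**Figure D1:**
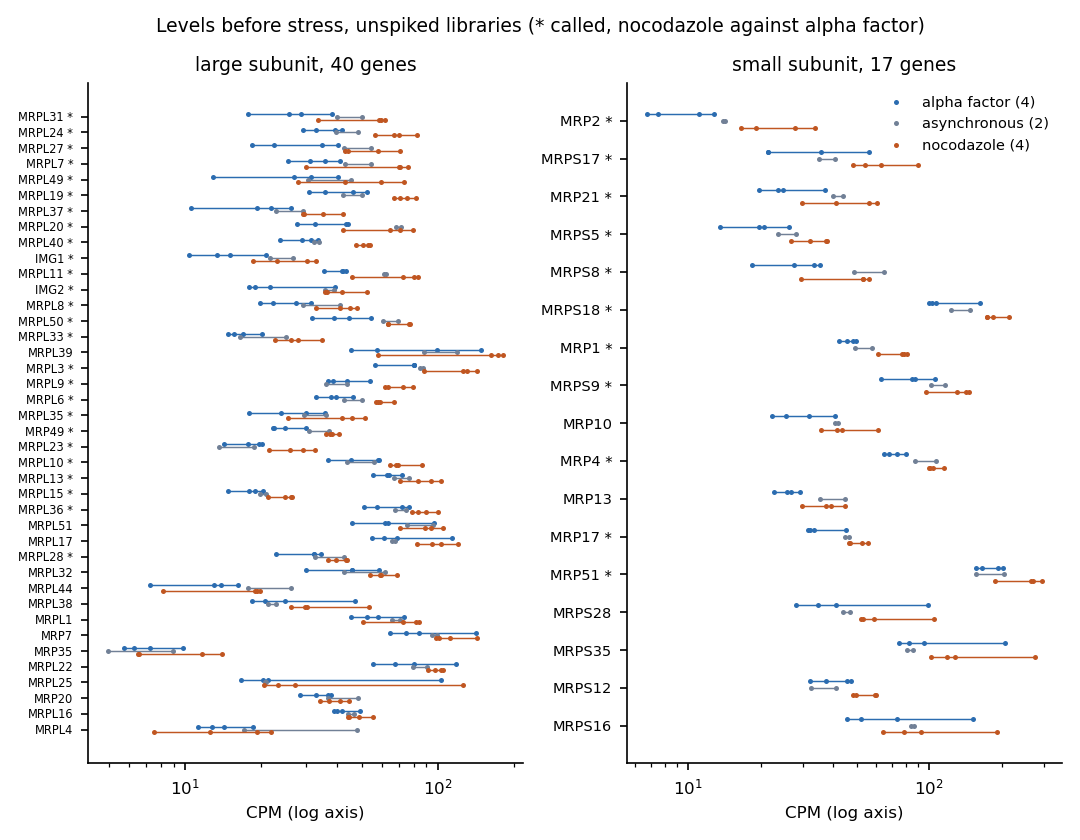
CPM on a log axis of each large subunit gene (left) and small subunit gene (right) at T0 in unspiked libraries, with 4 alpha factor, 2 asynchronous and 4 nocodazole libraries as points joined by a line per group; an asterisk marks genes called higher in nocodazole than in alpha factor. In 26 of the 57 genes every nocodazole point lies to the right of every alpha factor point.

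The difference ran through both subunits. 26 of 40 large subunit genes and 11 of 17 small subunit genes were called, as were 25 of the 38 with a bacterial homologue and 12 of the 19 without. MRP2, encoding the uS14 homologue of the small subunit, was at 7.46, 11.1, 6.72 and 12.8 CPM in alpha factor and at 27.8, 33.6, 16.6 and 19.1 CPM in nocodazole, so that the groups did not overlap, and had the largest difference, 1.34 ± 0.26 log2 (SE, adjusted p = 0.00175, edgeR). MRPL24, encoding the bL28 homologue, was at 29.2, 39, 41.8 and 32.8 CPM in alpha factor and at 82.3, 67, 56.4 and 69.9 CPM in nocodazole, again without overlap (0.99 ± 0.17 log2, adjusted p = 0.000822, edgeR). MRPL31, encoding mL60, was at 17.7, 37.9, 28.6 and 25.8 CPM against 58.2, 59.4, 33.6 and 61.5 CPM, and here the lowest nocodazole library lay within the alpha factor range (1.01 ± 0.23 log2, adjusted p = 0.00652, edgeR). In 26 of 57 members every nocodazole library was above every alpha factor library, which held for 8.62% of all ORFs tested.

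Several proteins of known place in the ribosome were among the called genes. MRPL3, whose product mL44 carries an RNase III fold, was at 80.5, 80.2, 56.2 and 80.5 CPM in alpha factor and 125, 143, 87.7 and 130 CPM in nocodazole, without overlap (0.73 ± 0.17 log2, adjusted p = 0.00708, edgeR). MRPS5, encoding the uS5 homologue, was at 13.5 to 26.1 CPM in alpha factor and 26.8 to 37.7 CPM in nocodazole (0.79 ± 0.16 log2, adjusted p = 0.00265, edgeR), and MRP51, a small subunit protein with a known role in translating mitochondrial mRNAs, at 157 to 202 and 187 to 295 CPM (0.54 ± 0.15 log2, adjusted p = 0.0196, edgeR). IMG1 and IMG2, named for their need in keeping an intact mitochondrial genome, differed by 0.84 ± 0.25 log2 and 0.79 ± 0.22 log2 (adjusted p = 0.0264 and 0.0172, edgeR). MRP20, the uL23 homologue that lines the mouth of the exit tunnel, had a difference of 0.23 ± 0.19 log2 that did not pass (adjusted p = 0.437, edgeR), and MRPL4, the uL29 homologue beside it, had the smallest, with 14.2, 12.8, 11.2 and 18.6 CPM in alpha factor and 19.3, 21.8, 7.5 and 12.5 CPM in nocodazole.

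Other genes of the same machinery mostly differed in the same direction, beside 612 of all 5710 ORFs tested called higher and 702 called lower. No difference between these groups was tested. Of the 22 other mitochondrial ribosome genes 14 were higher and none lower, with a median log2 difference of 0.64. They included MNP1, encoding the homologue of bacterial L7/L12 (1.15 ± 0.18, adjusted p = 0.000409, edgeR), and RSM23 (1.07 ± 0.22, adjusted p = 0.00297, edgeR). Of 12 translation factor and membrane insertion genes 5 were higher, of 10 ribosome assembly genes 3, of 17 mitochondrial tRNA synthetase genes 3, and of 15 protein import genes 5, with none lower. Of 15 translational activator genes 2 were higher and 1 lower, with 5 below 0 at a median of 0.32. Cytosolic ribosomal protein genes had 34 of 138 higher and none lower at a median of 0.44, and 36 nuclear genes of respiration had 6 higher and 1 lower at a median of 0.092. Regulator genes had 3 of 10 higher and none lower, with 3 below 0 at a median of 0.22. Among them HAP4, the activator subunit that drives respiratory genes, was higher by 1.29 ± 0.17 log2 (adjusted p = 9.18e-05, edgeR) and PUF3 by 0.61 ± 0.16 log2 (adjusted p = 0.0121, edgeR). The libraries came from a salt and a heat experiment: within the salt experiment alone 41 members were called higher (median 0.70, 27.4% of all ORFs called), and within the heat experiment alone none was called, with 6 at an unadjusted p under 0.05, a median of 0.57, 56 of 57 above 0 and 3.64% of all ORFs called (edgeR).

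**Figure D2:**
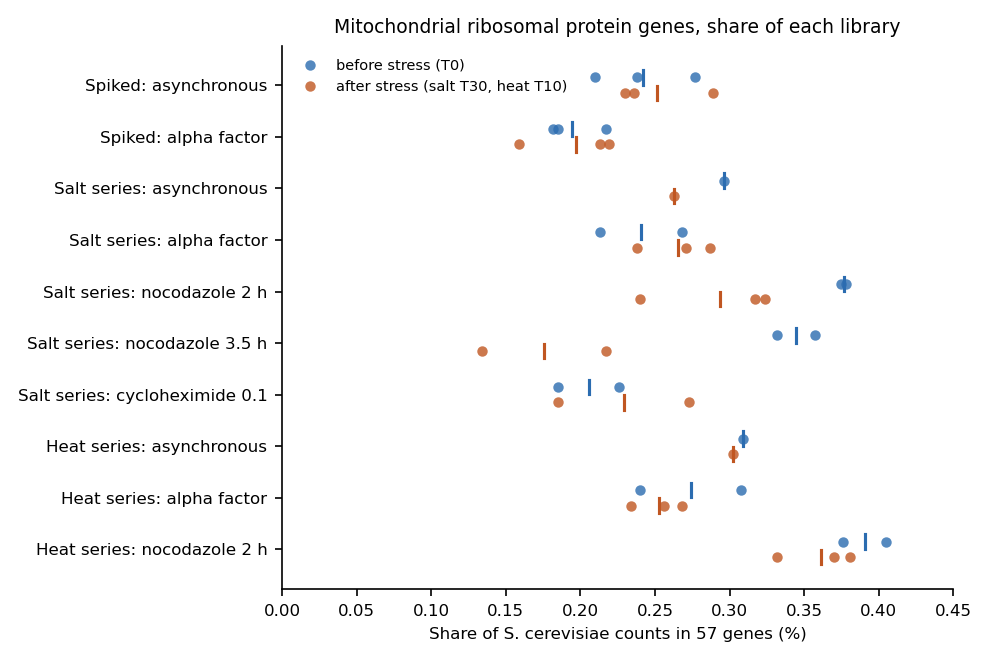
Share of each library's S. cerevisiae counts (%) held by the 57 member genes, 1 point per library, by cell state and time. The 4 nocodazole T0 libraries lie between 0.375 and 0.405%, above the 4 unspiked alpha factor T0 libraries at 0.213 to 0.308%.

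Fewer members passed against asynchronous cells. Against asynchronous cells, alpha factor arrest had 4 members lower and none higher in unspiked T0 libraries (edgeR), where 24.7% of ORFs were called and 10.9% called lower, and 48 of 57 fitted differences lay below 0 with a median of -0.29 log2. MRPS8, encoding the uS8 homologue, was at 35.4, 33.4, 18.4 and 27.4 CPM in alpha factor and 65.1 and 48.7 CPM in asynchronous cells, without overlap (-1.0 ± 0.23 log2, adjusted p = 0.00691, edgeR). MRPL20, encoding mL58, was at 43.1, 44, 27.6 and 32.5 CPM against 71.5 and 68.1 CPM, also without overlap (-0.95 ± 0.27 log2, adjusted p = 0.0212, edgeR). The other two called were MRPL11 and MRPL4, and the call of MRPL4 rested on 1 library, since its asynchronous values were 47.9 CPM in the salt experiment and 17.1 CPM in the heat experiment, the latter within the alpha factor range. Without that salt-experiment asynchronous library no member was called, and the count, MRP8 included, went from 5 to 2 without the heat-experiment one, to 3 without the first alpha factor library of the salt experiment and to 9 without the second of the heat experiment.

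The spiked libraries gave the same comparison in other samples. Alpha factor cells at T0 had 3 members lower and none higher (edgeR), with 12.8% of ORFs called and 4.23% called lower, and 54 of 57 differences lay below 0 with a median of -0.30 log2. With the libraries paired by replicate number, which the correlation of their deviations allowed, 10 were lower where 12.8% of all ORFs were called lower. MRPL7, encoding the uL5 homologue, was at 49.7, 52.8 and 62.9 CPM in asynchronous and 37.3, 36 and 31.3 CPM in alpha factor cells, without overlap (-0.62 ± 0.17 log2, adjusted p = 0.0319, edgeR). MRPL49, encoding the bL21 homologue, was at 40.4, 35.3 and 43.9 CPM against 23.3, 23.4 and 22.1 CPM, again without overlap (-0.76 ± 0.22 log2, adjusted p = 0.0386, edgeR). MRPL6, encoding the uL6 homologue, was at 52, 37.7 and 52.7 CPM against 25.3, 26.5 and 31.8 CPM, also without overlap (-0.75 ± 0.22 log2, adjusted p = 0.0407, edgeR).

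None of the members called lower in alpha factor cells was called in both library sets, although 45 of 57 lay below 0 in both. In the spiked set 13 of 57 members were lower in every alpha factor library than in every asynchronous one, against 15.2% of all ORFs. Every call of these 3 members was lost when any single library of the comparison was left out, with the exception that MRPL6 stayed called without asynchronous replicate 2; counts with MRP8 then ran from 0 to 2. Scaled to S. pombe counts, which measures RNA per added cell, the median difference was -0.53 log2 for the members and -0.25 for all ORFs, with no member called (4.02% of ORFs called), 1 at an unadjusted p under 0.05 (edgeR). With replicate pairs as well 2 were lower, MRPL49 and MRPL6, where 6.96% of ORFs were. Per 1000 S. pombe counts, the members' counts were 20, 28.1 and 31.4 in asynchronous and 11, 22.9 and 21.5 in alpha factor cells. These groups overlap, while within each of the 3 replicate pairs the alpha factor value was the lower.

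Against asynchronous cells, nocodazole arrest had 1 member higher and none lower (edgeR), with 4.13% of ORFs called and 2.29% called higher, and 51 of 57 differences lay above 0 with a median of 0.31 log2. That gene was MRPL9, encoding the uL3 homologue, at 35.9 and 43.5 CPM in asynchronous and 72.4, 61.7, 79.5 and 63.5 CPM in nocodazole libraries, without overlap (0.84 ± 0.18 log2, adjusted p = 0.0159, edgeR), against 36.8 to 53.7 CPM in alpha factor. It was not called when either asynchronous library, or the first nocodazole library of the salt experiment, was left out, and 3 were called without the first nocodazole library of the heat experiment. After 3.5 h of nocodazole no member was called against 2 h (1.73% of ORFs called), 3 had an unadjusted p under 0.05, DESeq2 also called none, and the median was -0.13 log2. The G1/S sum of these groups did not overlap, at 191 and 281 CPM after 3.5 h and 50.5 to 74.2 CPM after 2 h, and its part in the comparison was not tested. In cycloheximide at the label 0.1 the 57 took 0.185 and 0.226% of counts, under both asynchronous libraries, but edgeR called no member (0.105% of ORFs called), with 22 at an unadjusted p under 0.05 and 49 of 57 below 0 at a median of -0.45 log2. DESeq2 called 6 lower, where it called 2.7% of all ORFs and 79 of 5710 lower. The spiked cycloheximide T0 libraries, 1 per label, did not show a lower share: they held 0.241% (label 0.1) and 0.236% (label 0.2), within the 0.21, 0.238 and 0.277% of spiked asynchronous T0. The smallest p in the unspiked comparison was that of MRPL51, encoding mL43, at 75.2 and 95.6 CPM in asynchronous and 21.3 and 33.4 CPM in cycloheximide libraries, without overlap (-1.40 ± 0.25 log2, adjusted p = 0.0544, edgeR).

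After salt in growing cells few members were called without pairing by replicate number, and the direction of the calls depended on the scaling. In spiked asynchronous libraries 3 of 57 members were lower at T30 and none higher (edgeR), whereas 41.8% of all ORFs were called, 22.2% higher and 19.6% lower, so that members were called at a lower rate than ORFs in general. The median log2 change was -0.11, with a range of -0.96 to 0.46, whereas 134 of 138 cytosolic ribosomal protein genes were lower at a median of -1.65. Scaled to S. pombe counts the median of the members turned to 0.45, the median of all ORFs being 0.60, with no member called (24.9% of ORFs called) and none at an unadjusted p under 0.05 (edgeR). With the replicate pairs 11 were lower and 2 higher, where 28.6% and 30.9% of all ORFs were. With the pairs and S. pombe scaling together 10 were higher and none lower, where 41.4% of all ORFs were higher, at medians of 0.44 for the members and 0.63 for all ORFs. Per 1000 S. pombe counts the members went from 20 to 33.6, from 28.1 to 40.3 and from 31.4 to 34, higher after salt in each of the 3 pairs.

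The 3 members called lower without pairing were MRP2, IMG1 and MRPL49. MRP2 went from 21.5, 27.4 and 22 CPM to 11.9, 14.4 and 14.1 CPM, without overlap (-0.96 ± 0.24 log2, adjusted p = 0.00697, edgeR). IMG1, encoding the bL19 homologue, went from 18.4, 20.8 and 25.9 CPM to 8.49, 16 and 13.5 CPM, without overlap (-0.90 ± 0.27 log2, adjusted p = 0.0175, edgeR). MRPL49 went from 40.4, 35.3 and 43.9 CPM to 33.4, 21.4 and 33.4 CPM, without overlap (-0.59 ± 0.22 log2, adjusted p = 0.0436, edgeR). None of the 3 passed under S. pombe scaling, and without T0 replicate 3 only MRP2 of the 3 was called, the count with MRP8 going from 4 to 2. The call of IMG1 was also lost without T30 replicate 1, and that of MRPL49 without any of the 6 libraries other than T30 replicate 1. Over the 57 members, 4 had every T30 library below every T0 library and 7 had every T30 library above. Over all 5744 ORFs tested these counts were 1099 and 1859.

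Related gene groups are given from the same libraries, beside the 22.2% of all ORFs called higher and 19.6% called lower, and no difference between groups was tested. The 22 other mitochondrial ribosome genes had none called by edgeR or DESeq2 and 0 at an unadjusted p under 0.05, at a median of 0.10. 7 of 15 protein import genes were lower, among 12 translation factor genes OXA1, the membrane insertase, was lower by -1.27 ± 0.19 log2 and MEF2 higher by 0.90 ± 0.21 log2 (adjusted p = 0.000201 and 0.00399, edgeR), 4 of 17 tRNA synthetase genes (23.5%) and 5 of 15 translational activator genes were higher with none lower, and 14 of 36 nuclear respiration genes were higher and 1 lower at a median of 0.44.

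**Figure D3:**
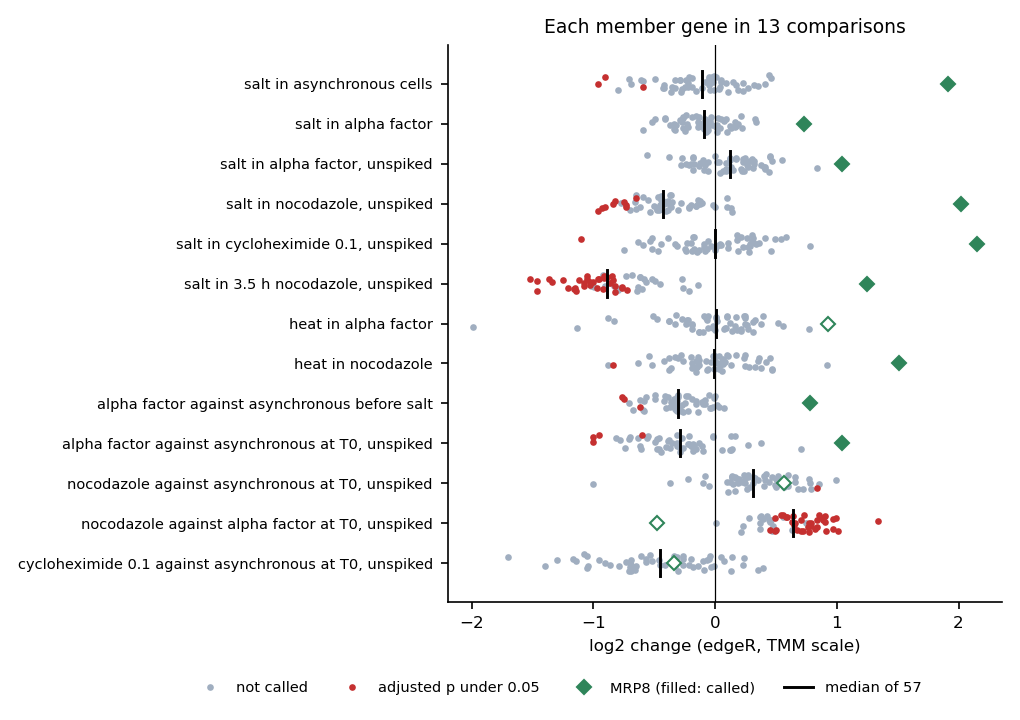
log2 change on the TMM scale (x axis) of each of the 57 member genes in 13 comparisons (rows), with called genes coloured, the median of the 57 as a black bar and MRP8 as a diamond, filled where called. Members shift together to the right in nocodazole against alpha factor (median 0.64) and to the left after salt in 3.5 h nocodazole (median -0.89); the median of -0.11 after salt in asynchronous cells becomes 0.45 when scaled to S. pombe counts, where all ORFs have 0.60.

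In alpha factor arrest the unpaired fits over whole series called no member after salt. In the spiked libraries none was called (9.09% of ORFs called), with 1 at an unadjusted p under 0.05, none called by DESeq2 and a median of -0.09 log2; with replicate pairs 2 were lower, where 15.9% of ORFs were. Scaled to S. pombe counts the median was 0.45 and that of all ORFs 0.51. In the unspiked libraries none was called either (5.86% of ORFs called), with 1 at an unadjusted p under 0.05, none by DESeq2 and a median of 0.12 log2. IMG1 was at 10.3, 15.1 and 12.9 CPM before and 11.5, 15.7 and 10.8 CPM after salt in spiked alpha factor cells, all of them under the lowest asynchronous value before salt, 18.4 CPM. The difference between the responses of alpha factor and asynchronous cells, tested as an interaction, called no member besides MRP8 (8.79% of ORFs called), with 1 at an unadjusted p under 0.05, none by DESeq2 and a median of 0.013; with replicate pairs 1 was higher, where 15.7% of ORFs were. After salt 1 member, MRPL7, was lower in alpha factor than in asynchronous cells (12.5% of ORFs called, 5% lower), at 32.5, 30.2 and 32.8 against 50.4, 51.4 and 62.4 CPM without overlap (-0.69 ± 0.17 log2, adjusted p = 0.022, edgeR); with replicate pairs 8 were lower, where 17.7% of ORFs were. It was not called without alpha factor replicate 2 or 3 or without asynchronous replicate 1 or 3, nor under S. pombe scaling (-1.02 log2, all ORFs -0.30). With pairs and S. pombe scaling together 6 were lower, MRPL7 among them, where 14% of ORFs were.

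Some members fell after salt in nocodazole arrest. After 2 h of nocodazole 9 of 57 were lower at T30 and none higher (edgeR), with 31.6% of ORFs called and 16.8% lower, a share close to that of the members. The whole set nevertheless lay lower, with 52 of 57 below 0 and a median of -0.43 log2, all ORFs having 0.0035. MRPL49 went from 73.2 and 59.4 CPM to 26.9 CPM in replicate 1 and to 40.8 and 37.2 CPM in the 2 libraries of replicate 2, without overlap (-0.96 ± 0.24 log2, adjusted p = 0.00602, edgeR). IMG1 went from 30.4 and 32.8 CPM to 13.3, 20.5 and 18.1 CPM, without overlap (-0.90 ± 0.26 log2, adjusted p = 0.015, edgeR), and MRPS16 fell by 0.93 ± 0.28 log2 (adjusted p = 0.0179, edgeR). The others were MRP1, MRP2, MRPL8, MRPL11, MRPL17 and MRPL33. With MRP8 the count of 10 fell to 2 and 4 without either T0 library and to 4 without T30 replicate 1, and rose to 16 without the 0.5 N library. In 29 of 57 members every T30 library was below every T0 library, where 30% of all ORFs were. The 2 libraries of replicate 2, which differ in dose, entered these counts and p-values as separate replicates.

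After 3.5 h of nocodazole most members were called lower, a count that fell when any 1 of 3 of the 4 libraries was left out or when these were fitted alone. 33 of 57 members were lower after salt and none higher (edgeR), where 28.8% of ORFs were called and 14.7% called lower, and all 57 changes lay below 0 with a median of -0.89 log2 and a range of -1.52 to -0.14, all ORFs having -0.009. 23 of 40 large subunit genes and 10 of 17 small subunit genes were called. Together the 57 went from 0.332 and 0.357% of counts to 0.134 and 0.217%. MRPL49 went from 57 and 49.4 CPM to 11.4 and 22.4 CPM (-1.52 ± 0.28 log2, adjusted p = 0.0012, edgeR). MRPL27, encoding mL41, went from 50.6 and 45 CPM to 9.69 and 22.1 CPM (-1.46 ± 0.33 log2, adjusted p = 0.00428, edgeR), and MRPS16 from 45.6 and 57 CPM to 11.8 and 22.1 CPM (-1.46 ± 0.33 log2, adjusted p = 0.00416, edgeR). In these 3 genes, and in 53 of all 57, both T30 libraries lay below both T0 libraries, which held for 34.6% of all ORFs, and T30 replicate 1 was the lower of the pair in the 3 genes named.

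Replicate 1 at T30 differed from replicate 2 in size but not in direction. The 5 mitosis genes summed to 746 CPM in T30 replicate 1, against 1530 CPM in T30 replicate 2. They summed to 1060 CPM in T0 replicate 1 and to 1250 to 1450 CPM in the 2 h nocodazole T30 libraries. On log2(CPM + 1) against the T0 library of the same number the median member was at -1.32 in replicate 1, where the median of all ORFs with at least 10 CPM was itself -0.47, and at -0.76 in replicate 2, where it was 0.013. 49 members in replicate 1 and 8 in replicate 2 were at least 2-fold lower, against 26.8% and 11.1% of all ORFs. With MRP8 the count of 34 went to 18 without T30 replicate 1 (17 lower, median -0.74), to 18 and 11 without T0 replicate 1 or 2, and to 8 when fitted on these 4 libraries alone. How far the make-up of T30 replicate 1 as a library enters these values was not tested.

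Some members were called in more than 1 experiment. Of the 9 members that fell after salt in 2 h nocodazole, 8 also fell in 3.5 h nocodazole, 88.9% of the former and 24.2% of the latter. Of all ORFs called lower in 2 h nocodazole 67% were also called lower in 3.5 h nocodazole, and these were 76.7% of the latter. The comparisons share no library, and the 8 members were IMG1, MRP1, MRPL8, MRPL11, MRPL17, MRPL33, MRPL49 and MRPS16. All 3 members that fell in spiked asynchronous cells, IMG1, MRP2 and MRPL49, were also among the 9, or 33.3% of them, and over all ORFs these shares were 71.7% and 82.2%. The members' salt responses were not shown to differ between arrests: 3.5 h minus 2 h nocodazole called none (0% of ORFs called; 3 members at an unadjusted p under 0.05, none by DESeq2) although 56 of 57 lay below 0 at a median of -0.49. Nocodazole minus alpha factor called none in edgeR (2.36% of ORFs called) and 1 in DESeq2 (5.45% of ORFs called). In edgeR 7 were at an unadjusted p under 0.05 and 55 of 57 lay below 0 at a median of -0.53. The largest of these was MRP2 (-1.68 ± 0.46 log2, adjusted p = 0.0657, edgeR). The nocodazole T0 libraries of the salt experiment enter both the fall after salt and the comparison of the arrests at T0, whereas the 3.5 h T0 libraries do not enter the latter.

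Other mitochondrial genes fell alongside in 3.5 h nocodazole. 12 of 22 other mitochondrial ribosome genes, 10 of 15 import genes, 7 of 17 tRNA synthetase genes, 5 of 12 translation factor genes and 5 of 10 assembly genes were lower with none higher, as were 91 of 138 cytosolic ribosomal protein genes at a median of -1.18. They included MEF1, the mitochondrial elongation factor G (-1.39 ± 0.24 log2, adjusted p = 0.0007, edgeR), OXA1 (-1.21 ± 0.24, adjusted p = 0.00167) and MAM33 (-1.43 ± 0.31, adjusted p = 0.00348). Respiration genes did not follow: 11 of 36 were higher and 1, CYC1, lower, at a median of 0.36. HAP4 was lower by -1.02 ± 0.30 log2 (adjusted p = 0.0191, edgeR), and PUF3 had a change of -0.10 ± 0.21 log2 that did not pass (adjusted p = 0.771, edgeR).

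Under cycloheximide at the label 0.1 salt lowered 1 member and raised none (edgeR), with 33.7% of ORFs called and 17.4% lower, 2 members at an unadjusted p under 0.05 and a median of -0.0026 log2. The member was IMG1, from 14.4 and 19 CPM to 6.54 and 10.2 CPM without overlap (-1.10 ± 0.31 log2, adjusted p = 0.0114, edgeR), a call lost without T0 replicate 2 or T30 replicate 1. The set thus kept its median in cycloheximide while 60 of 138 cytosolic ribosomal protein genes fell at a median of -0.93.

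Single libraries traced the course over time in replicate 1, on log2(CPM + 1) against the T0 library and without a replicate check. The median of all ORFs is not given beside these values, here, after heat or for t0'. A shift shared with other ORFs was therefore not set apart. In nocodazole the median member was at -0.49 at T15, -0.69 at T30, -0.76 at T45 and -0.68 at T60 after salt, and at T45 and T60 all 57 lay below T0. 14 members at T45 and 10 at T60 were at least 2-fold lower, against 10.3% and 8.85% of all ORFs. In alpha factor the median was 0.044, 0.18, -0.21 and -0.19 at the same times. The other salt libraries at T30 of nocodazole gave smaller values, -0.20 at 0.5 N and -0.25 at 0.7 N against T0 replicate 2. In the unspiked asynchronous pair the median was -0.21 and in cycloheximide at the label 0.2 it was -0.14. The library labelled nocodazole and t0' in the salt experiment, whose markers lay near those of asynchronous cells, was below T0 in all 57 members at a median of -0.59. The time label t0' is not explained in the sources used here.

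**Figure D4:**
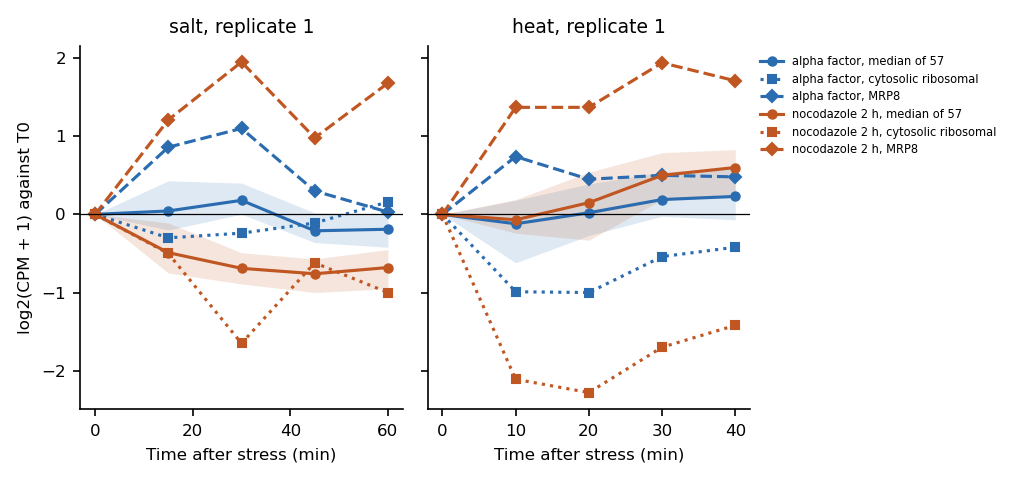
Median log2(CPM + 1) against T0 (y axis) over minutes after salt (left) and heat (right) in replicate 1, for the 57 members with their quartiles as a band, cytosolic ribosomal protein genes and MRP8, in nocodazole and alpha factor arrest; 1 library per point. After salt the members' line in nocodazole falls to -0.76 at T45 without returning by T60, and after heat it ends at 0.60 while that of the cytosolic genes stays below 0.

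Few members changed detectably at T10 of heat. In alpha factor none was called (15.3% of ORFs called; 3 at an unadjusted p under 0.05, none by DESeq2) with a median of 0.0061 log2. In nocodazole 1 member was lower (33.1% of ORFs called, 16.8% lower) and the median was -0.0052. That gene was MRPL37, encoding mL54, from 29.3 and 42 CPM to 19.1, 21.7 and 16.7 CPM without overlap (-0.84 ± 0.25 log2, adjusted p = 0.0272, edgeR), a call lost without T0 replicate 2, without T10 replicate 1 or without the 37 degree library. Over the same libraries cytosolic ribosomal protein genes had medians of -0.94 in alpha factor and -1.47 in nocodazole, with 28 and 85 of 138 lower.

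Later after heat the members stood higher in the single nocodazole libraries. Their median was -0.069 at T10, 0.15 at T20, 0.50 at T30 and 0.60 at T40, where 48 of 57 lay above T0, while the median of cytosolic ribosomal protein genes was -2.11, -2.28, -1.70 and -1.42. 9 members were at least 2-fold higher at T30 and again 9 at T40, against 19% and 19.3% of all ORFs, which is no larger a share than that of ORFs in general. In alpha factor the median was -0.12, 0.021, 0.19 and 0.23 at these times. 4 members had high values in several replicate 1 libraries of the heat experiment: MRPL25, encoding mL59, was at 103 and 16.6 CPM in the 2 alpha factor T0 libraries and at 126 and 27.2 CPM in the 2 nocodazole T0 libraries, replicate 1 first, and at 16.1 to 23.2 CPM in the other T0 libraries of these arrests and of asynchronous cells. MRPS16 was at 152 and 52.3 CPM and at 192 and 92.6 CPM in the same order, and MRPS28 and MRPS35 likewise. For MRPL25 a fitted change of -1.99 log2 after heat in alpha factor, the largest of any member there, T0 replicate 1 stands apart from the 11.1 to 16.6 CPM of the other 4 libraries.

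Scaled to S. pombe counts, the lightest gradient fraction of asynchronous cells held the largest share of the median member's RNA, as it did for the median ORF. Each gradient ran from free ribonucleoprotein (RNP) through the 40S, 60S and 80S fractions to the polysome fractions 2R to 6R>, read here as mRNAs with 2 ribosomes up to the heaviest, and fractions were scaled to their S. pombe counts. Shares of RNA between fractions therefore assume an equal amount of S. pombe RNA added to every fraction, which was not tested. In asynchronous cells at T0 the median member had 44.8 and 45.8% of its RNA in RNP, in the 2 gradients, against 40.8 and 38% for the median of all ORFs with at least 10 CPM in the inputs, and 30.5 and 23.7% in 2R and heavier. The median of the same ORFs was 24.6 and 20% in 2R and heavier, that of cytosolic ribosomal protein genes 67.3 and 62.6%, that of nuclear respiration genes 44.7 and 34.7% and that of the 22 other mitochondrial ribosome genes 26.7 and 20.1%. In alpha factor cells, with 1 gradient, the members' median in 2R and heavier was 38.2% and that of all ORFs 37.4%.

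Members differed widely in this share. MRPS12, encoding the uS12 homologue at the decoding centre, was the highest, at 62.2 and 59.4% in 2R and heavier at T0, 69.8 and 60.5% at T30 and 72.3% in alpha factor. IMG1 followed with 45 and 45.5% at T0. Among the lowest were MRPS17, the uS17 homologue, at 12.2 and 10.4%, MRP13 at 12.6 and 9.93% and MRP20 at 14.3 and 10.5%. These genes kept their place in both T0 gradients, between which the median itself moved from 30.5 to 23.7%.

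**Figure D5:**
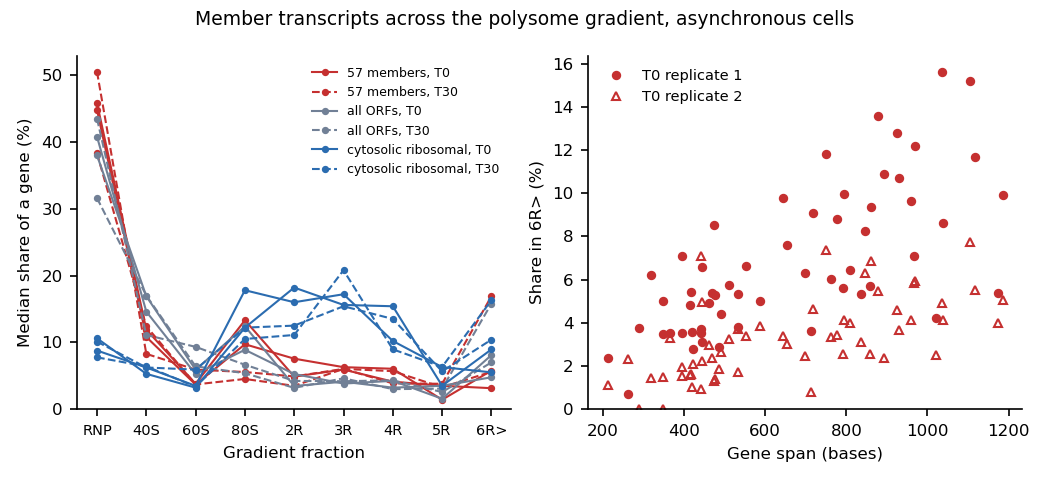
Left, median share of a gene's RNA in each gradient fraction (%) for members, all ORFs, and cytosolic ribosomal protein genes in asynchronous cells at T0 and T30, 1 line per gradient. Right, share in 6R> at T0 (%) against gene span in bases for the 57 members, replicates 1 and 2; longer genes have larger shares, with MRPL39 at 213 bases at 2.38 and 1.13%.

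The share in the heaviest fraction followed gene length. Across the 57 members Spearman's rho between gene span and the share in 6R> was 0.71 and 0.70 at T0, 0.61 and 0.66 at T30 and 0.70 in alpha factor. Over 5031 ORFs it was 0.10, 0.19, -0.18, -0.021 and 0.07. The members span only 213 to 1185 bases and the 5031 ORFs were not limited to that range. Whether other genes of like length have a similar rho was not tested. These are correlations over genes, which share libraries and depth. MRPL39, with 213 bases, had 2.38 and 1.13% in 6R> at T0, and MRP4, with 1185 bases and encoding the uS2 homologue, had 9.93 and 5.06%. With the share in 2R and heavier, rho over the members was -0.18 to 0.21.

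Whether members were called to shift between fractions after salt depended on the scaling and on the gradients included. In the comparison of 6R> with its input edgeR called none before salt (0.0187% of ORFs called), none after (0% of ORFs) and none for the difference (0% of ORFs), with 2, 1 and 1 at an unadjusted p under 0.05 and none by DESeq2. The medians were -0.18 and 0.16 log2 before and after, and -0.93 and -1.12 when scaled to S. pombe counts, where all ORFs had -0.79 and -1.44. The lowest p before salt was that of MRPS12 (-1.77 ± 0.46 log2, adjusted p = 0.329, edgeR). The ratio of 2R and heavier to the lighter fractions had a median change of 0.38 log2 after salt, with all ORFs at 0.36, 51 of 57 above 0 and none called by limma (2.43% of ORFs called; 3 at an unadjusted p under 0.05). The lowest p was that of MRPL15, encoding mL57 (1.45 ± 0.49 log2, adjusted p = 0.0949, limma). All members had this same standard error, so it does not measure the spread of MRPL15 itself and the order by p follows the size of the change. With fractions scaled to equal S. cerevisiae totals 15 were higher, where 26.1% of ORFs were, and without T30 gradient 2 8 were higher, where 14.9% of ORFs were. In both settings the share of the 57 members called was close to that of all ORFs.

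MRP8, which has the name but no known place in the ribosome and whose function is not known, behaved unlike the 57. In spiked asynchronous cells it went from 51.1, 74.8 and 73.2 CPM to 259, 249 and 320 CPM after salt, without overlap (1.91 ± 0.19 log2, adjusted p = 7.64e-06, edgeR), and it passed under S. pombe scaling too (2.42 log2, adjusted p = 0.000187). In alpha factor cells it went from 120, 92.2 and 122 CPM to 187, 173 and 232 CPM, also without overlap (0.73 ± 0.18 log2, adjusted p = 0.0255, edgeR), a call lost without T0 replicate 2 or 3, without T30 replicate 1 or 3, and under S. pombe scaling (1.25 log2, adjusted p = 0.104). Before salt it was higher in alpha factor cells, by 0.78 ± 0.18 log2 in spiked and 1.04 ± 0.22 log2 in unspiked libraries (adjusted p = 0.0124 and 0.00355, edgeR), calls lost respectively without replicate 1 of either group and without the asynchronous library of the salt experiment.

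MRP8 was called higher after salt in the other arms too. In nocodazole it went from 110 and 111 CPM to 426, 414 and 543 CPM (2.02 ± 0.30 log2, adjusted p = 0.000137, edgeR), in cycloheximide from 42.8 and 73.9 CPM to 187 and 376 CPM (2.15 ± 0.32 log2, adjusted p = 0.000117, edgeR) and in unspiked alpha factor from 164 and 153 CPM to 352, 272 and 418 CPM (1.04 ± 0.29 log2, adjusted p = 0.0443, edgeR). In none of these did the groups overlap, though the alpha factor call was lost without either T0 library or without T30 replicate 1 or the 0.7 N library. In 3.5 h nocodazole it went from 123 and 149 CPM to 181 and 428 CPM (1.25 ± 0.31 log2, adjusted p = 0.00696, edgeR), 0.75 log2 and no longer called without T30 replicate 2. After heat in nocodazole it went from 75.3 and 121 CPM to 197, 268 and 328 CPM without overlap (1.51 ± 0.31 log2, adjusted p = 0.00394, edgeR), and in alpha factor from 135 and 140 CPM to 225, 240 and 298 CPM, where it did not pass in edgeR (0.93 ± 0.30 log2, adjusted p = 0.0623). In the gradients 44.3 and 39% of its RNA was in 2R and heavier at T0 and 64.5 and 43% at T30, above the members' median in each gradient.

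Across the 20 comparisons planned and 2 added later, 45 of the 57 members were called in at least 1, as were 72% of the 5035 ORFs tested in every comparison. 12 were called in none: MRP10, MRP13, MRP20, MRP35, MRPL16, MRPL22, MRPL25, MRPL32, MRPL39, MRPL44, MRPL51 and MRPS12. IMG1 and MRPL49 were called lower in 4 and MRPL7 and MRPL11 in 3. MRP4, MRPL19 and MRPL51 overlap another annotated gene, and as no source used here gives the strand setting of the counting, their counts are uncertain.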

How the data were processed

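The authors deposited unnormalized read counts for each ORF and, in spiked and gradient libraries, each S. pombe transcript. They used Trimmomatic 0.32, Bowtie2 and HTSeq 0.6.1, per the submitters' processing notes, and no source used here gives the Bowtie2 version, the genome build or the strand setting. 70 deposited columns match no labelled sample and were not used. Members were found through symbols of the RefSeq R64 gene table, which matched 6021 of 6708 ORF rows of the spiked table. Spans are from that table. In spiked libraries 1 row without an ORF name, 0.00248 to 0.00545% of counts, and 4 plasmid rows were left out.

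After filterByExpr and TMM scaling, ORFs were tested in edgeR 4.0.16 (R 4.3.3) with 1 quasi-likelihood fit per series: 16 spiked libraries, 22 unspiked salt libraries at T0 and T30, 12 unspiked heat libraries at T0 and T10, 15 unspiked T0 libraries with the experiment as a term, and 8 libraries of 6R> and input. Tests were two-sided with Benjamini-Hochberg adjustment over all ORFs tested, and errors are standard errors of log2 changes. Unless S. pombe scaling is named, a change is relative to the other S. cerevisiae RNA. The polysome ratio was tested with limma 3.58.1 for ORFs with at least 10 CPM in the inputs, after scaling fractions to S. pombe counts (offset 1 read). Time courses use log2(CPM + 1), with ORFs of at least 10 CPM as background. Alternatives included DESeq2 1.42.0, RLE factors, no filter, S. pombe totals as library sizes and a replicate block. The procedure was tested on simulated data. Libraries of a group were not copies: chi-square per degree of freedom between their counts was at least 1.9.

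Replicate numbers were checked by correlating deviations from group means. In the spiked series libraries of the same number correlated at 0.313 to 0.706 (18 pairs) and others at -0.652 to 0.184 (36 pairs), which was taken as pairing for that series.

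The members and lists were chosen with earlier results of these data known. Named genes are, per comparison, up to 3 called members with the largest rise and fall, or the member with the smallest p, and throughout MRP8, IMG1, IMG2, MRP20, MRP51, MRPL3, MRPS5 and the 3 highest and 3 lowest levels; other members were named after their values were seen. 2 comparisons of salt responses between unspiked arms, the fits within an experiment and S. pombe scaling with pairs were added after the data were seen.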

Additional observations from a re-analysis of the deposited data

Results flagged for a closer look

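For MRP8 the difference between groups was itself tested and passed. The salt response of MRP8 in alpha factor cells minus that in asynchronous cells was -1.18 ± 0.26 log2 (SE, adjusted p = 0.015, edgeR interaction contrast), with 8.79% of ORFs called. Its level went from 51.1, 74.8 and 73.2 CPM to 259, 249 and 320 CPM in asynchronous cells and from 120, 92.2 and 122 CPM to 187, 173 and 232 CPM in alpha factor cells. Its starting level was called higher in alpha factor cells (0.78 ± 0.18 log2, adjusted p = 0.0124, edgeR). The later level lay lower there but did not pass (-0.40 ± 0.18 log2, adjusted p = 0.166, edgeR). The call of the difference between responses held when any 1 of the 12 libraries was left out, and under S. pombe scaling the value was again -1.18 with adjusted p = 0.632.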

How the results depend on the processing

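Counts below are of members called, MRP8 included. The share of all ORFs called moved with the setting too and is not given for each count. With the replicate block it went from 41.8 to 59.5% for salt in asynchronous cells and from 9.09 to 30% in spiked alpha factor. Scaled to S. pombe counts it was 14% for 6R> against input after salt. A larger count is therefore not by itself a gain of the members beside other ORFs. Of the other settings, 182 counts stayed within 1.5 times the reported one and 86 did not, and of values for named members 380 kept direction and side of the threshold, 94 lost the call, 13 gained it and 2 reversed. With the replicate block the counts were 14 (salt, asynchronous), 3 (salt, spiked alpha factor), 2 (their difference), 11 and 9 (alpha factor against asynchronous before and after salt), 10 (the same, unspiked), 2, 19 and 4 (salt in unspiked alpha factor, nocodazole and cycloheximide), 1 and 4 (heat in alpha factor and nocodazole) and 13 (polysome ratio). Outside the spiked series the samples share only a number (same-number correlations -0.498 to 0.704 at T0, -0.0153 to 0.654 in salt, -0.26 to 0.736 in heat, -0.136 to 0.367 in fractions). Scaled to S. pombe counts the counts were 1, 0, 0, 0 and 0 for the 5 spiked comparisons in that order and 3 for 6R> against input after salt, where MRP8 reversed to -0.067 log2. With the block as well, added after the data were seen, they were 11 (salt, asynchronous), 2 and 6 (alpha factor against asynchronous before and after salt) and 1 (6R> after salt), and MRP8 reversed there to -0.35 log2. Fitting only the libraries compared gave 0 (alpha factor against asynchronous after salt), 3 and 0 (alpha factor and nocodazole against asynchronous, unspiked), 1 (cycloheximide), 2, 1 and 8 (salt in unspiked alpha factor, cycloheximide and 3.5 h nocodazole), 2 and 1 (heat), 2 (6R> before salt) and 1 (salt response, nocodazole minus alpha factor). RLE factors gave 3 for alpha factor against asynchronous, unspiked, and so did leaving out the experiment term, which gave 0 for nocodazole. DESeq2 gave 3 (nocodazole against asynchronous), 6 (cycloheximide) and 1 each for heat in alpha factor, 6R> before and after salt, and nocodazole minus alpha factor. No filter gave 1 (cycloheximide), equal fraction totals gave 15 (polysome ratio), and the heat experiment alone gave 0 (nocodazole against alpha factor). Leaving out 1 library gave 2 to 6 (salt, asynchronous), 0 to 1 (spiked alpha factor), 1 to 1 (difference), 0 to 2 and 0 to 2 (alpha factor against asynchronous before and after), 0 to 9 (the same, unspiked), 0 to 3 (nocodazole against asynchronous), 27 to 37 (nocodazole against alpha factor), 0 to 1, 2 to 16, 1 to 3 and 11 to 42 (salt in unspiked alpha factor, nocodazole, cycloheximide and 3.5 h nocodazole), 0 to 1 and 1 to 2 (heat), 0 to 9 (polysome ratio), 0 to 3 (nocodazole minus alpha factor) and 0 to 0 for the others. A lone sample was then taken to vary like the other groups. The causes of these shifts were not tested. Arms of 2 or 3 libraries and members with few counts limit what can be called.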

Other observations

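The 4 libraries labelled t0' belong to no comparison above. Against T0 of the same experiment, on log2(CPM + 1), the median member was at 0.21 and -0.029 in the alpha factor libraries of the salt and heat experiments, and at -0.59 and -0.20 in those labelled nocodazole. The summed level of 5 pheromone genes was 49.8 and 46.9 CPM in the former and 90 and 46.8 CPM in the latter. In the libraries labelled nocodazole the mitosis genes summed to 707 and 715 CPM and the G1/S genes to 230 and 255 CPM, whereas nocodazole T0 libraries had 1080 to 1230 and 50.5 to 74.2 CPM. In the 2 spiked cycloheximide pairs, 1 library per time, the median member was at -0.056 (label 0.1) and -0.041 (label 0.2) at T30 of salt, while cytosolic ribosomal protein genes had medians of -1.19 and -0.99 and MRP8 was at 1.64 and 1.84.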
